A study of Mus musculus with 6 samples.

Results

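The genes described here are the moderately expressed genes that had lower values in E-cadherin conditional knockout libraries, from cells labelled as mouse prostate epithelium. A gene was a member when its mean in the control libraries was at least 10 and under 100 FPKM, its knockout mean was lower, and all 3 knockout libraries lay below the median of the 3 control libraries. FPKM values are fragment counts corrected for how long a transcript is and how deeply a library was sequenced. Several families and genes that meet these conditions, among them secretoglobins, connexins and stress response genes, were left out by name. The rule found 68 genes among the 632 listed in the deposited table. A lower knockout mean was found for 182 of all listed genes (28.8%). Control means of 10 to 100 FPKM were found for 179 genes, of which 96 had a lower knockout mean, 82 met the condition on the single libraries, and 14 of those were left out by name.

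The knockout group had 3 libraries from C57BL/6 mice at 3 months of age in which E-cadherin, the adhesion receptor that joins epithelial cells, had been conditionally deleted. The control group had 3 libraries from littermates of the same strain and age. Dissociated prostate tissue was sorted by flow cytometry for epithelial cells and total RNA was sequenced. The labels give neither the Cre driver of the deletion nor the sorting marker, and whether the libraries stand for different animals is also unstated. Every knockout title carries the mark L7 and every control title the mark L2, so genotype and whatever these marks stand for cannot be told apart.

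The values that chose the members are the values described below. The differences between knockout and control libraries are therefore a description, no p-value is attached to any member, and the table itself holds genes selected by the authors on grounds that the sources used here do not state. The ratio given throughout is the knockout mean divided by the control mean. In bulk RNA, fewer cells of a type and less RNA per cell cannot be told apart. Cdh1, the gene of E-cadherin, is not among the 632 listed genes, so the labels could not be checked on it.

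Prostate epithelium is a secretory tissue. Its luminal cells build large amounts of secreted protein, trim and glycosylate it in the endoplasmic reticulum and Golgi, and move peptides, ions and lipids across their membranes. Mitochondria and lipid metabolism supply this work, and androgens maintain it. The members were grouped by what their products do: transporters and channels, mitochondrial proteins, enzymes of lipid, sterol and retinoid metabolism, endomembrane and lysosomal proteins, proteins of translation and small-molecule metabolism, signalling and surface proteins, transcription and chromatin proteins, little-studied proteins, and non-coding genes or copies of other genes.

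Most members differed by a modest amount. The median ratio was 0.778, a median log2 ratio of -0.36, with quartiles of 0.681 and 0.802, while the median log2 ratio of the 622 listed genes with a finite ratio was 0.93. Only 5 of the 68 members had a ratio under 0.5, 14 lay between 0.5 and 0.7, 28 between 0.7 and 0.8, and 21 above 0.8. The ratio nearest 1 was 0.833, for Timm13. The knockout and control values did not overlap for 49 members. Over all listed genes the knockout values lay wholly below the control values in 99 of 632, or 15.7%, and nothing is read from the difference because the rule used the same libraries. The difference between the group means was larger than the SD of either group for 61 members. The exceptions were C330013J21Rik, Adm2, Lars2, Gm15501, Tmem97, Pcp4l1 and Timm13. This comparison with the SD was not made over all listed genes and uses the libraries of the rule, so nothing is read from it. In a limma fit over all 632 genes, 20 members and 46 listed genes (7.28%) were called lower at a Benjamini-Hochberg adjusted p under 0.05. This share describes the same selected libraries and supports nothing further. The number of members called was 4, 7 and 8 without knockout library 1, 2 or 3, and 8, 30 and 12 without control library 1, 2 or 3.

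**Figure D1:**
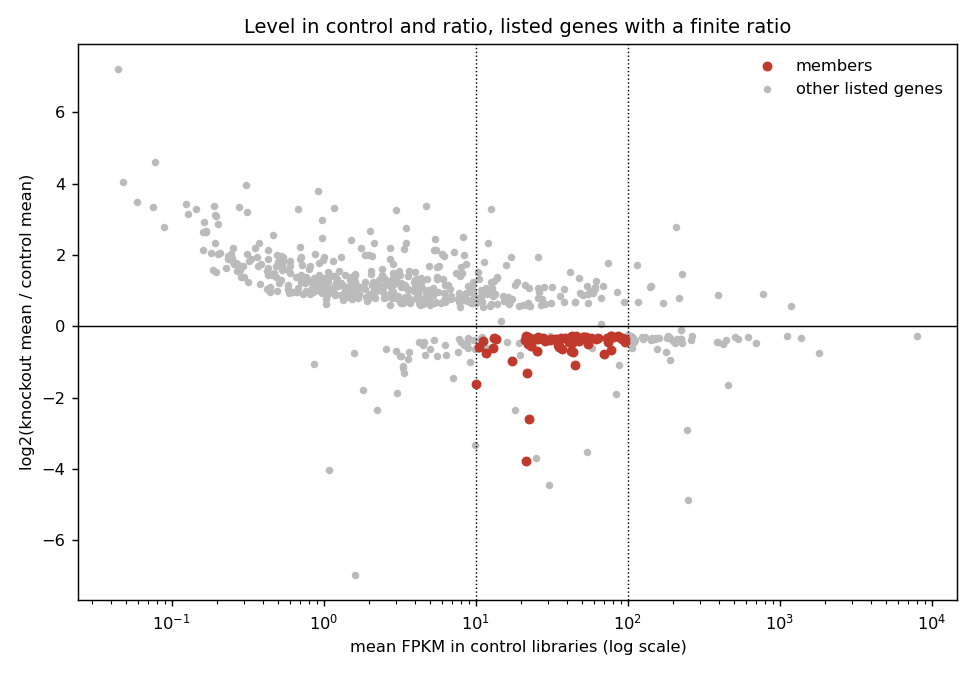
Listed genes by mean FPKM in the control libraries (log scale) and log2 of the knockout mean over the control mean. Members are red, other listed genes are grey, dotted lines mark 10 and 100 FPKM, and genes with no finite ratio are not drawn. Most members form a narrow band just below 0, with 5 of 68 below a ratio of 0.5.

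At the bounds of the rule, Adm2 was just inside at 3.25 FPKM in knockout and 10.0 FPKM in control libraries, and C2cd4a was just outside at 6.33 and 9.85 FPKM. Deb1 was the member nearest the upper bound, at 70.7 FPKM in knockout and 96.2 FPKM in control libraries, and the pseudogene Tpt1-ps3 was just outside at 84.1 and 100.1 FPKM. The condition on single libraries was met most narrowly by Adm2, whose highest knockout library was 0.996 of the control median. It was missed most narrowly by Qpctl, at 1.01 of the control median. Besides Qpctl, and leaving aside genes left out by name, 12 genes with control means of 10 to 100 FPKM and lower knockout means missed that condition, among them Psat1, Slc3a2, Mthfd2, Pck2, Oit1 and B3gnt7.

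The lowest ratio belonged to C330013J21Rik, named Zfp972 in GENCODE M21, a protein-coding gene on chromosome 2 (177903340 to 177925613, GRCm38). It had 1.699, 1.73 and 1.28 FPKM in knockout libraries 1 to 3 and 3.22, 59.9 and 1.44 FPKM in control libraries 1 to 3. The ratio of 0.073 rests on control library 2, and without that library it is 0.674 and the gene no longer meets the rule. Adm2, the gene of intermedin, a peptide hormone of the calcitonin family (chromosome 15, 89322720 to 89324731), behaved in a like way, with 5.09, 2.19 and 2.48 FPKM in knockout and 23.2, 1.71 and 5.11 FPKM in control libraries. Control library 1 was the only high one, the groups overlapped, and the ratio was 0.325 with that library and 0.954 without it. In no other member did leaving out 1 library move the ratio by over 1.5 times.

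H2-Q10 (chromosome 17, 35470089 to 35474563) encodes a class Ib histocompatibility molecule that in mice is secreted. It had 7.94, 10.3 and 8.21 FPKM in knockout libraries, against 31.9, 21.8 and 11.1 FPKM in control libraries. The groups did not overlap, but control library 3 lay just above the knockout libraries while control library 1 was far above them. The means were 8.80 ± 1.27 FPKM in knockout and 21.6 ± 10.4 FPKM in control (SD, n = 3 each), a ratio of 0.407.

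Fam195b, now Mcrip1 (chromosome 11, 120542888 to 120549727), had knockout and control values far apart. Its product binds the co-repressor CtBP, and in cultured cells it thereby relieves repression of the E-cadherin gene itself. It had 24.5, 21.2 and 18.3 FPKM in knockout libraries and 48.4, 44.6 and 42.1 FPKM in control libraries. Every knockout library was well below every control library, with means of 21.4 ± 3.10 and 45.0 ± 3.15 FPKM and a ratio of 0.474. The small gene Fam25c (chromosome 14, 34351881 to 34355433), whose product has no settled role, had 51.6, 47.6 and 22.9 FPKM in knockout and 66.1, 53.2 and 89.4 FPKM in control libraries. Knockout library 3 was the lowest by far, and knockout library 1 came close to control library 2. Because these 3 protein-coding genes had the lowest ratios among those whose groups did not overlap, the RefSeq sequence of the 250 bases before each gene start is shown (GRCm38.p6, 5′ to 3′ on the gene's strand). The capitals mark the motif matches found there: a TATA box for H2-Q10 and Fam25c, and for Fam195b the reverse complement of the androgen receptor motif AGAACA.
H2-Q10, plus strand, chr17:35469839-35470088: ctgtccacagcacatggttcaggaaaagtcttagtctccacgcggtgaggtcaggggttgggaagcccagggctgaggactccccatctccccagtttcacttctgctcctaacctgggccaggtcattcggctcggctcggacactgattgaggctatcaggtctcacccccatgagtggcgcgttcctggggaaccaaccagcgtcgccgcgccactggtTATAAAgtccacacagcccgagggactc
Fam195b, minus strand, chr11:120549728-120549977: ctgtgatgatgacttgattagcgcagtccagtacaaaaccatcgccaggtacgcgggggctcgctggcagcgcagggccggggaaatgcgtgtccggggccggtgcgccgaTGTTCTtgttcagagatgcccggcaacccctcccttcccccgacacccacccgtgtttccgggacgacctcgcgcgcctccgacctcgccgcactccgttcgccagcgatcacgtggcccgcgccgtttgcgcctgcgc
Fam25c, minus strand, chr14:34355394-34355643: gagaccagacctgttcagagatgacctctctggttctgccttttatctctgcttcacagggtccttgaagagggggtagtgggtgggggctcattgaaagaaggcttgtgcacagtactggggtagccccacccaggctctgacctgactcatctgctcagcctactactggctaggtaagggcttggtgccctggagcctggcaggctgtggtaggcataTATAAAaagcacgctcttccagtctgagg

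Promoters were then compared over the members. RefSeq windows of 300 bases, reaching 50 bases past the gene start, were found for 52 members and 27025 genes in all, and both strands were searched. CCAAT, the most frequent motif, occurred in 21 of 52 member promoters (40.4%) and in 37.9% of all promoters. The partial androgen receptor site AGAACA was in 8 (15.4%) against 19% of all, and the TATA box TATAAA in 6 (11.5%) against 14.2% of all. TGTTTAC, bound by forkhead factors, and the ATF4 element TGATGNAAN each occurred in 1 member promoter, in Yipf4 and in Crabp1, against 3.55% and 4.04% of all. CCAAT is also the start of the endoplasmic reticulum stress element. That element, the unfolded protein response element TGACGTGG and the cyclic AMP element TGACGTCA were in 0 member windows, against 0.13%, 0.607% and 1.88% of all. The member promoters had a median GC content of 60.0%, and all promoters 52.7%. These shares are descriptions of letters in short windows.

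**Figure D2:**
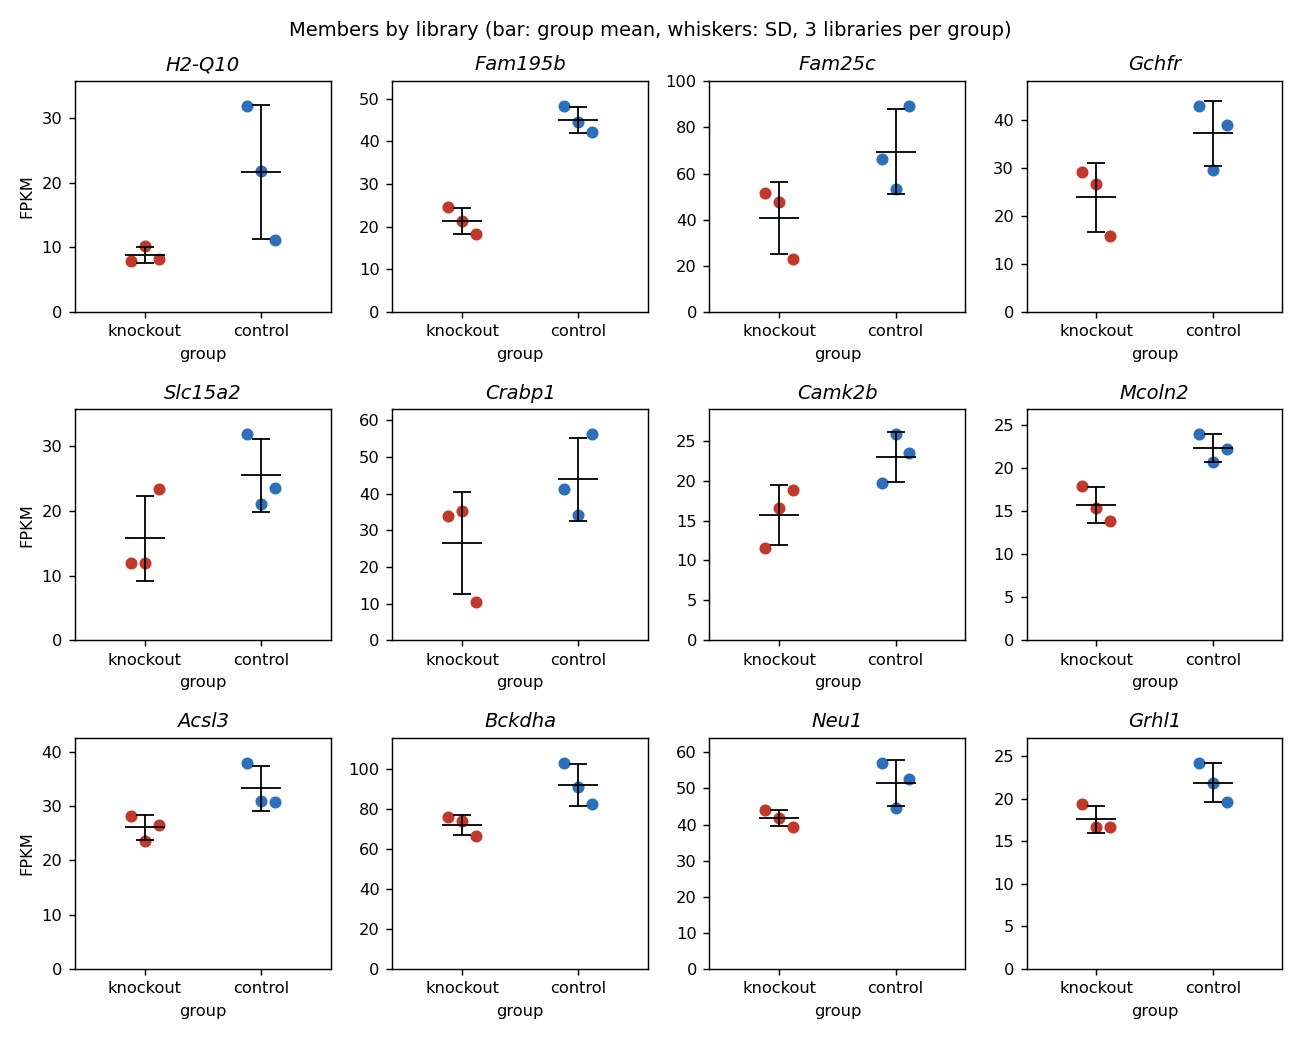
FPKM of 12 members in each knockout (red) and control (blue) library, with the group mean as a bar and the SD as whiskers (n = 3 each). In Fam195b every knockout library is far below every control library, in Gchfr the lowest control library lies just above the highest knockout library, and in Slc15a2 knockout library 3 lies within the control range.

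A set of members are copies of housekeeping genes. When the longest transcript of each member was searched against all GENCODE M21 transcripts, 13 of the 68 had a match of at least 95% identity over at least 50% of their length in another gene. Of these, 7 matched a gene for a ribosomal protein or ubiquitin. The search was not made over all listed genes, so nothing is read from these counts. Gm15500 was 100% identical to Rpl5 over 99.9% of its length and Gm12918 100% identical to Rpl13 over its whole length. Rpl19-ps11 matched Rpl19 at 99.8% and Rpl36-ps10 matched Rpl36 at 95.9%. Gm8797 matched the polyubiquitin gene Ubb at 98.2% over 78.2%. None of these 7 parent genes is among the 632 listed genes. Reads from such a copy and from its parent are hard to tell apart, so the source of these values is uncertain. These names were chosen after the values were seen.

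Rpl36-ps10 (chromosome X, 19870824 to 19871039) had the lowest ratio of them, at 0.164. It had 3.30, 2.66 and 5.13 FPKM in knockout libraries and 21.3, 37.3 and 9.20 FPKM in control libraries, so the groups did not overlap but the control libraries spread widely. A stretch of 120 bases of its transcript is set beside Rpl36, where capitals mark the 5 bases at which they differ.
Rpl36-ps10, transcript bases 17 to 136: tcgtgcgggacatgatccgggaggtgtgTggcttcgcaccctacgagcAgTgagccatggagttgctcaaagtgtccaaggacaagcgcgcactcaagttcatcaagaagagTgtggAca
Rpl36, open reading frame bases 116 to 235: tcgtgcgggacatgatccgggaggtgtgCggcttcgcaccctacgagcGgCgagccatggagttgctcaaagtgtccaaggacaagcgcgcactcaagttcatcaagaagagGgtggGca
The other 6 copies had ratios of 0.726 to 0.812. Rpl19-ps11, the most abundant after Gm15500, had 72.3, 74.6 and 66.0 FPKM in knockout libraries and 92.2, 70.6 and 99.5 FPKM in control libraries. Its control library 2 lay below knockout libraries 1 and 2, and its first 120 bases hold 0 differences from the Rpl19 reading frame. Gm15500 had means of 75.1 ± 5.21 FPKM in knockout and 95.7 ± 19.9 FPKM in control, and Gm15427 averaged 31.0 ± 2.92 FPKM in knockout and 42.8 ± 3.08 FPKM in control. The groups overlapped in Gm15500, Gm15501 and Rpl19-ps11 and not in the other 4.

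The remaining copies include Spin2e (chromosome X, 31618216 to 31618920), of the Spindlin family of chromatin readers, which matched 18 other genes, 2 of them also listed. It had 9.32, 8.44 and 2.91 FPKM in knockout and 11.2, 9.90 and 13.9 FPKM in control libraries, with knockout library 3 standing apart and knockout library 1 close under control library 2. AY761184, whose closest match is the alpha-defensin gene Defa29 (97% identity), averaged 26.4 ± 6.47 FPKM in knockout and 42.4 ± 6.00 FPKM in control libraries. C330013J21Rik, Immp1l, Tm2d1 and Mettl7a1 also have such matches, over 52.3% to 77.6% of their length. Among the non-coding members, Gm13874, a long intergenic RNA on chromosome 2, had 9.81, 8.87 and 7.87 FPKM in knockout and 17.5, 15.8 and 19.01 FPKM in control libraries. Its groups were far apart, and its ratio of 0.508 was the next lowest after Fam195b. RP24-500I24.7, named Gm5547 in M21, and 2210408F21Rik had ratios of 0.637 and 0.695. Exons of 2210408F21Rik overlap Lncpint on the opposite strand, and the sources used here do not state whether counting used strand. Such overlap was not counted over all listed genes. In all, exons of 16 members overlap another gene, in 14 of them on the opposite strand. Among the named ones are Bckdha with B3gnt8, Acsl3 with Utp14b, Aimp1 with Tbck and Timm13 with Tmprss9.

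Transporters and ion channels gave 6 members with ratios of 0.618 to 0.817, and in 2 of them, Mcoln2 and Atp6v0e2, the groups did not overlap. Slc15a2 (chromosome 16, 36750177 to 36784962), the peptide transporter PEPT2 that takes up short peptides with protons, had 12, 11.9 and 23.3 FPKM in knockout and 31.8, 21.05 and 23.6 FPKM in control libraries. Knockout library 3 was within the control range, and the other knockout libraries were well below it. Mcoln2, an endolysosomal cation channel of the mucolipin family, averaged 15.7 ± 2.05 FPKM in knockout and 22.3 ± 1.62 FPKM in control libraries. Kcnk3, a background potassium channel, had 25.7, 24.3 and 14.1 FPKM in knockout and 25.4, 33.6 and 27.2 FPKM in control libraries. Only its knockout library 3 was clearly low. Slc9a2, a sodium/proton exchanger of epithelial membranes, averaged 20.5 ± 3.42 FPKM in knockout and 26.0 ± 3.13 FPKM in control libraries. Magt1, an oligosaccharyltransferase subunit also linked to magnesium transport, averaged 29.1 ± 2.79 FPKM in knockout and 36.2 ± 4.62 FPKM in control libraries. Both overlapped between groups, in each case by a single knockout library. Atp6v0e2, a subunit of the vacuolar proton pump, averaged 18.1 ± 2.15 FPKM in knockout and 22.1 ± 1.22 FPKM in control libraries.

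Mitochondrial proteins also gave 6 members, with ratios of 0.673 to 0.833. Bckdha (chromosome 7, 25629946 to 25658981), a subunit of the enzyme complex that commits branched-chain amino acids to breakdown, had 75.8, 74.1 and 66.4 FPKM in knockout libraries and 103, 90.8 and 82.4 FPKM in control libraries. All knockout libraries were below all control libraries. Immp1l, a peptidase of the inner membrane, had 49.5, 57.0 and 56.6 FPKM in knockout and 70.4, 63.7 and 87.2 FPKM in control libraries, again without overlap. Hscb, a co-chaperone of iron-sulfur cluster assembly, averaged 26.5 ± 1.85 FPKM in knockout and 34.2 ± 4.38 FPKM in control libraries. Slc25a28, an iron importer of the inner membrane, averaged 35.8 ± 0.479 FPKM in knockout and 43.1 ± 2.37 FPKM in control libraries, and neither of these genes overlapped between groups. Timm13, an intermembrane space chaperone, had 73.8, 78.5 and 64.4 FPKM in knockout and 105, 69.7 and 85.9 FPKM in control libraries, with control library 2 inside the knockout range. Lars2, the mitochondrial leucyl-tRNA synthetase, had 27.6, 23.8 and 19.9 FPKM in knockout libraries and 49.0, 25.4 and 31.5 FPKM in control libraries. It had the lowest ratio of the group, with control library 1 far above the others and control library 2 inside the knockout range.

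Lipid, sterol and retinoid metabolism was represented by 8 members with a median ratio of 0.779, and 6 did not overlap between groups. Crabp1 (chromosome 9, 54764748 to 54773110), a cytoplasmic carrier of retinoic acid, had 33.9, 35.2 and 10.5 FPKM in knockout and 41.2, 34.3 and 56.2 FPKM in control libraries. Knockout library 3 was low, while knockout library 2 exceeded control library 2. Retsat, which saturates retinol, averaged 10.5 ± 0.878 FPKM in knockout and 13.5 ± 0.711 FPKM in control libraries. Hacd2, a dehydratase of very-long-chain fatty acid elongation, averaged 30.4 ± 2.48 FPKM in knockout and 41.2 ± 5.54 FPKM in control libraries. Acsl3 (chromosome 1, 78657825 to 78707743), which activates long-chain fatty acids and is androgen-induced in human prostate cancer cells, had 28.2, 23.5 and 26.5 FPKM in knockout and 38.01, 31.0 and 30.8 FPKM in control libraries. The groups were separate, with control library 1 above the other control libraries. Smpdl3a, a phosphodiesterase related to acid sphingomyelinase, averaged 16.2 ± 0.445 FPKM in knockout and 21.3 ± 2.82 FPKM in control. Tmem97, the sigma-2 receptor that responds to sterols, had 82.4, 65.5 and 69.6 FPKM in knockout and 114, 72.0 and 87.8 FPKM in control libraries. Its groups overlapped, and it left the set without control library 1 or control library 2. Pla2g12a, a secreted phospholipase, had 66.5, 68.9 and 61.9 FPKM in knockout and 88.0, 70.2 and 82.7 FPKM in control libraries. Mettl7a1, a lipid droplet methyltransferase, had 65.1, 64.0 and 64.4 FPKM in knockout and 90.1, 72.8 and 69.7 FPKM in control libraries, an SD of 0.514 FPKM among the knockout libraries against 10.98 among the controls.

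All 6 members of the endomembrane and lysosomal group had knockout values wholly below the control values, with ratios of 0.674 to 0.832. This held for 49 of all 68 members. The rule used the same libraries, so nothing is read from such a count in any functional group. Rtn2, a reticulon that shapes the endoplasmic reticulum, had 7.17, 7.48 and 6.58 FPKM in knockout and 9.65, 11.9 and 9.93 FPKM in control libraries. The knockout values were tight and clearly separate. Neu1 (chromosome 17, 34931253 to 34935953), the lysosomal sialidase, averaged 41.8 ± 2.35 FPKM in knockout and 51.5 ± 6.36 FPKM in control libraries. Pigx, a subunit of the first mannosyltransferase of GPI anchor synthesis, averaged 43.0 ± 1.43 FPKM in knockout and 53.2 ± 5.30 FPKM in control libraries. The SD among the knockout libraries was the smaller in both genes. Cnih1, a cargo receptor of export from the endoplasmic reticulum, averaged 34.3 ± 0.863 FPKM in knockout and 42.1 ± 4.32 FPKM in control libraries. Yipf4, a Golgi membrane protein, averaged 34.5 ± 3.11 FPKM in knockout and 43.0 ± 4.19 FPKM in control libraries. Scpep1, a serine carboxypeptidase, averaged 38.2 ± 2.10 FPKM in knockout and 45.9 ± 3.94 FPKM in control.

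Translation and small-molecule metabolism had 3 members, none of which overlapped between groups. Gchfr (chromosome 2, 119167773 to 119172390), the feedback regulator of the first enzyme of tetrahydrobiopterin synthesis, had 29.3, 26.8 and 15.8 FPKM in knockout and 43.1, 29.7 and 39.1 FPKM in control libraries. The ratio was 0.642, with knockout library 3 the lowest. Adi1, an enzyme of the methionine salvage pathway, averaged 36.2 ± 5.83 FPKM in knockout and 47.8 ± 3.88 FPKM in control libraries. Aimp1, a scaffold of the cytoplasmic tRNA synthetase complex, averaged 58.6 ± 0.746 FPKM in knockout and 73.0 ± 9.79 FPKM in control libraries.

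Signalling and surface proteins were the largest group with assigned functions, at 10 members with ratios of 0.325 to 0.809, and Adm2 and H2-Q10 belong to it. Camk2b (chromosome 11, 5969644 to 6066362), a calcium/calmodulin-dependent kinase subunit, had 11.5, 16.6 and 18.8 FPKM in knockout and 19.7, 25.8 and 23.4 FPKM in control libraries. The groups were separate by a small margin, between knockout library 3 and control library 1. Mpped2, a metallophosphoesterase, averaged 8.49 ± 1.73 FPKM in knockout and 13.04 ± 2.41 FPKM in control libraries. Ttc7b, a scaffold of the plasma membrane phosphatidylinositol 4-kinase complex, averaged 8.35 ± 0.828 FPKM in knockout and 11.2 ± 0.935 FPKM in control libraries. Cmtm8, a MARVEL-domain protein linked to EGF receptor turnover, averaged 18.7 ± 1.21 FPKM in knockout and 23.9 ± 4.49 FPKM in control libraries. None of these 3 genes overlapped between groups. The serine/threonine kinase gene Pim3 averaged 31.2 ± 3.44 FPKM in knockout and 39.7 ± 7.67 FPKM in control, where control library 2 alone was far above. The orphan receptor gene Gpr37l1 averaged 10.5 ± 0.421 FPKM in knockout and 13.1 ± 1.01 FPKM in control libraries. Sh3yl1, whose product binds phosphoinositides, averaged 20.7 ± 1.81 FPKM in knockout and 25.5 ± 1.28 FPKM in control libraries. Pcp4l1, a small protein related to the calmodulin-binding Pcp4, had 51.9, 49.9 and 50.7 FPKM in knockout and 84.0, 57.2 and 49.3 FPKM in control libraries, so its control library 3 was below every knockout library.

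Transcription and chromatin proteins gave 5 members, among them Fam195b and Spin2e. Grhl1 (chromosome 12, 24572283 to 24617391), a grainyhead-like factor that activates genes of desmosomal adhesion, had 19.4, 16.7 and 16.7 FPKM in knockout and 24.3, 21.9 and 19.6 FPKM in control libraries. Its highest knockout library was just under its lowest control library. Zfp703, a zinc finger co-repressor, averaged 17.7 ± 2.57 FPKM in knockout and 21.4 ± 2.14 FPKM in control libraries. Dpy30, a core subunit of the complexes that methylate histone H3 at active promoters, averaged 41.1 ± 3.04 FPKM in knockout and 50.8 ± 6.63 FPKM in control libraries. Both overlapped between groups.

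Little-studied protein-coding genes make up 14 members, with a median ratio of 0.774. Deb1, named Ss18l2 in M21 (chromosome 9, 121710329 to 121713388), had 73.6, 69.3 and 69.2 FPKM in knockout and 104, 76.3 and 109 FPKM in control libraries. It was the most abundant member in control, and control library 2 lay close to the knockout values. Bex4, of a brain-expressed X-linked family, averaged 23.9 ± 1.23 FPKM in knockout and 35.2 ± 7.05 FPKM in control libraries. Tmem42 averaged 39.0 ± 1.80 FPKM in knockout and 54.8 ± 8.0 FPKM in control libraries. Serf1 averaged 31.6 ± 1.57 FPKM in knockout and 41.4 ± 6.85 FPKM in control libraries. In all 3 the knockout libraries lay close together and below every control library. Tpd52l1, a relative of the tumour protein D52, averaged 45.7 ± 1.11 FPKM in knockout and 57.4 ± 5.75 FPKM in control libraries. The others, Tmem238, Tmem218, Tm2d1, Lysmd1, Inafm1 and BC031181, had ratios of 0.783 to 0.829, and the last 3 overlapped between groups.

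**Figure D3:**
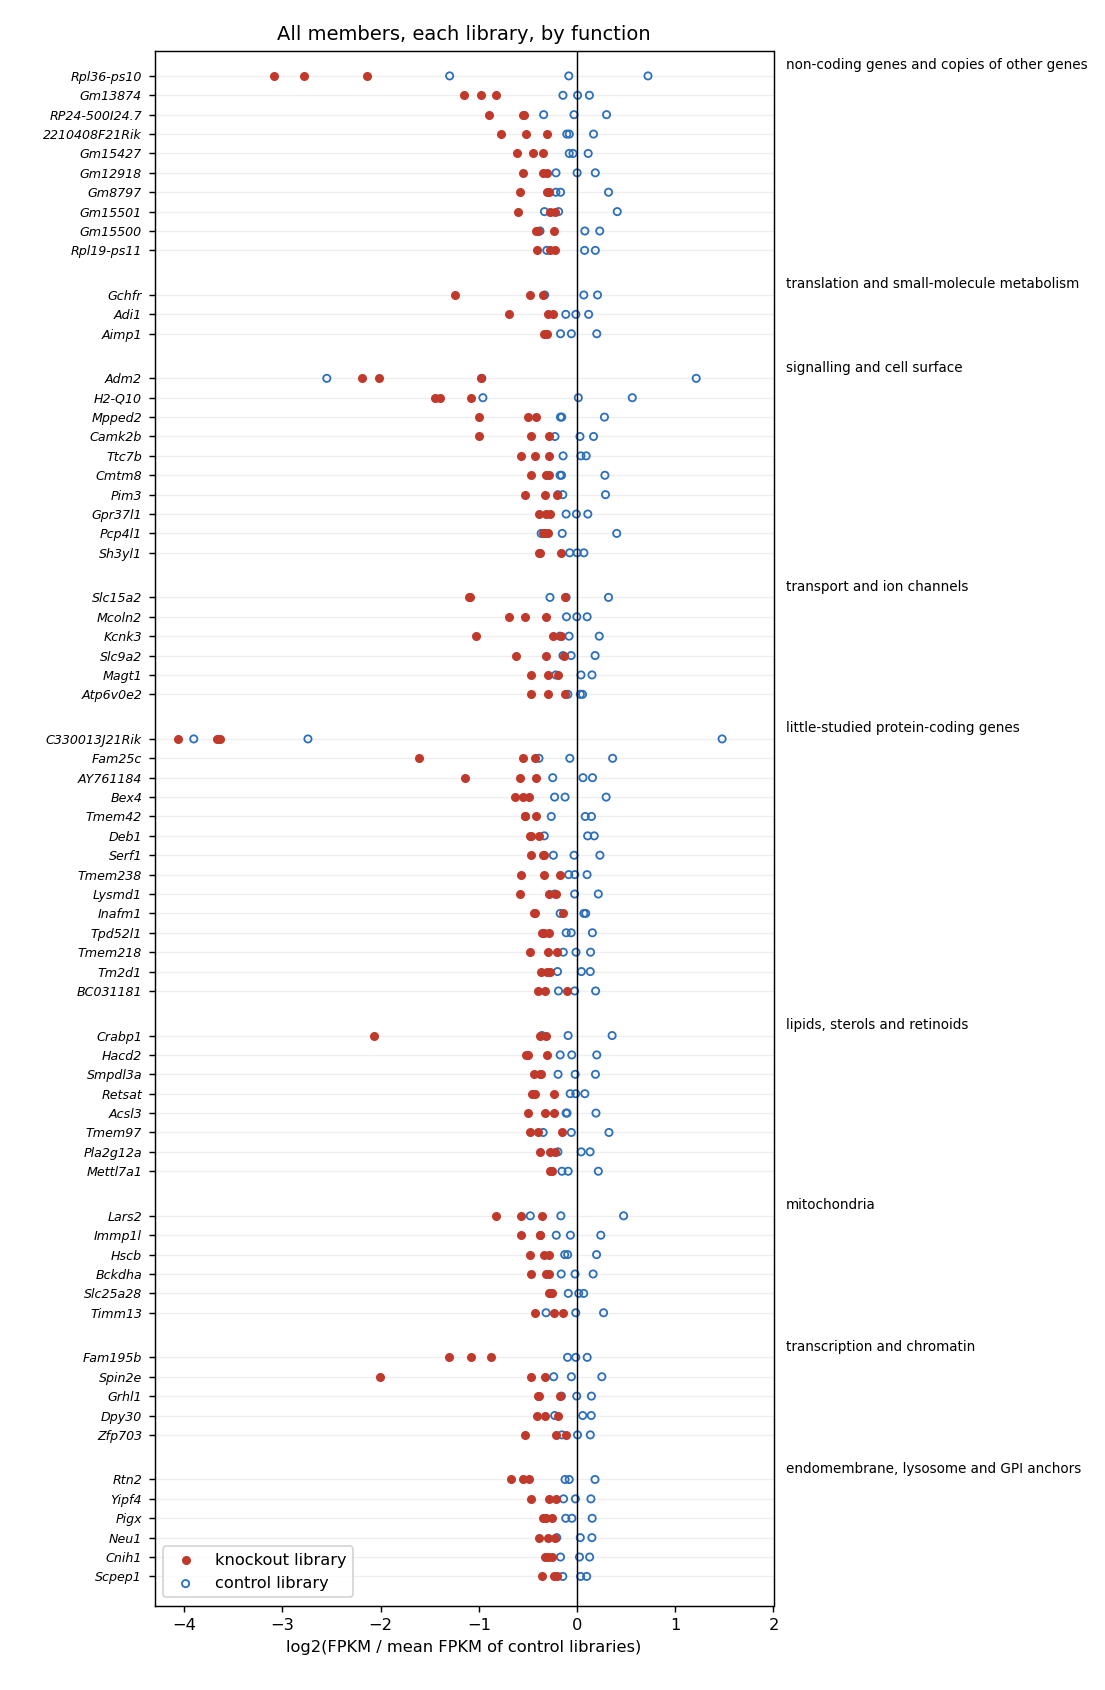
Each of the 68 members in each library as log2 of its FPKM over the mean of the control libraries, with members grouped by function. Filled red points are knockout libraries and open blue points control libraries. Most knockout points lie between 0 and -1, the control points of C330013J21Rik and Adm2 are spread over several log2 units, and knockout library 3 stands apart in Crabp1, Spin2e and Fam25c.

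The libraries of a group did not contribute equally to the members' values, which are the values that chose them. Within the knockout group, library 3 was the lowest in 39 of 68 members, and libraries 1 and 2 were the highest in 32 and 27. Within the control group, library 1 was the highest in 40 and library 2 the lowest in 35. The members' values summed to 2233, 2229 and 2044 FPKM in knockout libraries 1 to 3 and to 3114, 2695 and 2935 FPKM in control libraries 1 to 3. Among all 182 listed genes with a lower knockout mean, knockout library 3 was likewise the lowest of its group in 110 and control library 1 the highest in 114, and these genes too are grouped by the same values. Over all 632 listed genes knockout libraries 1 to 3 were the lowest of their group in 188, 211 and 233. The control order was another one, with control library 1 the highest in 232 and control library 2 the highest in 329. The median over members of the SD divided by the mean was 0.0949 in the knockout and 0.133 in the control libraries. Over all listed genes it was 0.116 in the knockout and 0.225 in the control libraries.

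**Figure D4:**
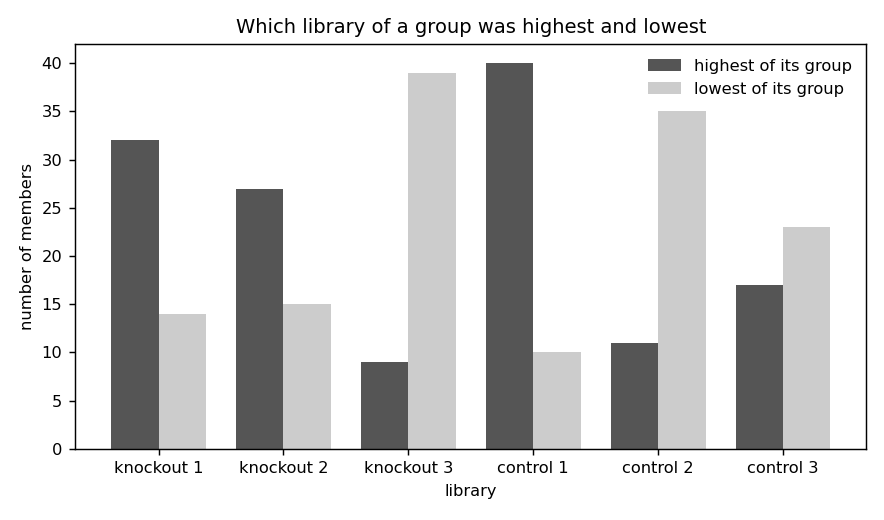
Number of the 68 members for which each library was the highest (dark) or the lowest (light) of its group of 3. Knockout library 3 was the lowest of its group in 39 members and control library 1 the highest of its group in 40.

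Leaving out a knockout library cannot break the condition on single libraries or the level range. With each control library left out in turn, 59 of the 68 members met the rule every time. Without control library 1, Slc15a2, Tmem97, Timm13 and Adm2 dropped out. Without control library 2, Rtn2, C330013J21Rik, Deb1, Tmem97 and Gm15500 did, and without control library 3 only Gm15501. All 5 genes lost without control library 2 left because their control mean then fell outside 10 to 100 FPKM, and they still met the condition on the single libraries.

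The members were spread over the genome. They lie on every chromosome from 1 to 19 and on X, with at most 6 on one chromosome. By M21, 59 of the 68 are protein-coding (86.8%), against 90.7% of the 632 listed genes, and 6 are processed pseudogenes. Of these 6, 4 are of the plain type (5.88% of members, 1.27% of listed genes). The other 2 are of the transcribed type (2.94% of members, 0.475% of listed genes). These shares were not tested. The closest pair of members is Dpy30 and Yipf4 on chromosome 17, with 166 kb between them.

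Other listed genes of the same pathways were counted from lists of prostate and secretory biology. Of 47 prostate secretory genes 9 are listed, Crabp1 being the member, and of the other 8 limma called 5 lower and 1 higher. Wfdc3, of the whey acidic protein family, had the lowest ratio of those called lower, at 147 ± 16.7 FPKM in knockout and 458 ± 110 FPKM in control libraries. Of 104 genes of protein folding and export in the endoplasmic reticulum 5 are listed, Fkbp2, Fkbp11, Srp9, Copz2 and Sar1b, all with control means above 100 FPKM. All 5 had lower knockout means, with ratios of 0.773 to 0.811, and adjusted limma p-values of 0.059 to 0.123. Of 75 genes of amino acid supply 14 are listed, all 14 with lower knockout means, of which limma called 1, Gdf15. Their summed levels overlapped, at 430 to 573 FPKM in knockout and 514 to 1001 FPKM in control libraries. Among these 14, Asns, Chac1, Trib3, Sesn2, Eif4ebp1, Nupr1, Slc7a11 and Gdf15 had been left out of the rule by name. So had Sbpl, Azgp1, Fgl1 and Wfdc3 among the prostate secretory genes called lower. A lower knockout mean was found for 28.8% of all listed genes. The lists were chosen with earlier results of these data known, so nothing is read from these counts of lower genes. Of the lipid and cholesterol list, Acsl3 is a member, and limma called Apod higher. Of 65 androgen response genes 4 are listed, and besides Acsl3 limma called Azgp1 lower and Psca and Steap4 higher. The remaining lists hold no member. Limma called 65.3% of all listed genes higher, and these counts are read beside that share. Of 11 listed protease and inhibitor genes limma called 9 higher, of 7 redox genes 5 higher, and of 2 polyamine and nucleotide genes both higher. It called neither of the 2 Golgi genes, nor Pck2 of the mitochondrial list or Cldn10 of the adhesion list, and no gene of the protein synthesis list is listed.

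Markers of cell types were higher in the knockout libraries, in a table where limma called 413 of 632 genes higher. The labelled cell type could be checked only on listed genes: the luminal epithelial markers Krt4, Ly6a and Psca were each called higher. Ly6a, a surface antigen of luminal progenitor cells, averaged 253.9 ± 38.3 FPKM in knockout and 73.9 ± 14.2 FPKM in control libraries, and Krt4, a keratin, averaged 11.3 ± 0.555 FPKM in knockout and 6.69 ± 1.52 FPKM in control libraries. Of 26 myeloid markers 17 are listed and all 17 were called higher, with summed levels of 1098 to 1134 FPKM in knockout and 458 to 636 FPKM in control libraries. Of 20 lymphoid markers 6 are listed and all 6 were called higher, with sums of 466 to 722 FPKM in knockout and 127 to 206 FPKM in control libraries. The 5 listed fibroblast markers of 16, all called higher, had sums of 148 to 154 FPKM in knockout and 86.6 to 111 FPKM in control libraries. The 6 listed basal epithelial markers of 12, all called higher, had sums of 194 to 228 FPKM in knockout and 94.8 to 125 FPKM in control libraries. None of these listed markers was at 0 in any library. The myeloid, lymphoid and fibroblast markers were thus also measured in the control libraries, and the members' values cannot be assigned to epithelial cells alone. Smooth muscle, endothelial and seminal vesicle markers are not among the listed genes. The members made up 6.23% of the summed FPKM of the listed genes in knockout and 8.64% in control libraries. FPKM is a share of each library, and the part that these other genes play in the lower values of the members was not tested.

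The members' median ratio of 0.778 stands beside 0.777 for the 48 listed genes at 100 FPKM and above with lower knockout means. The 83 genes of 10 to 100 FPKM with higher knockout means had a median ratio of 1.87. No difference between these sets was tested, since the sign of each was fixed by its choice. No member lay above a ratio of 0.833, and neither did any of the 96 listed genes of 10 to 100 FPKM with lower knockout means. The 48 genes at 100 FPKM and above reached 0.937. Whether the authors' choice of genes set the bound of 0.833, and with it the narrow range of the members, was not tested.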

How the data were processed

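RNA from sorted prostate epithelial cells was measured in 3 knockout and 3 control libraries, grouped by the genotype label. The deposited table gives 1 FPKM value per gene and library for 632 genes. The unit is inferred from the tools named in the submitters' processing notes (TopHat2 2.0.14, Cufflinks 2.2.1 and Cuffdiff, build GRCm38, with no role or order) and from the values, because the header names none. The sources used here do not state how the authors selected the genes. The labels name both a bulk and a droplet library kit. Depth is unknown: of 52 to 68 ratios of values under 0.5 FPKM between control libraries, at most 26.9% came within 1% of a ratio of small whole numbers, so reads were not recovered.

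Members were found by the stated rule. The members, their functional groups and the gene lists were chosen with earlier results of these data known. Values of log2(FPKM + 1), computed from the deposited FPKM, were fitted over all 632 genes with limma 3.58.1 under R 4.3.3, letting the prior variance follow the mean, without a filter on low values, with Benjamini-Hochberg adjustment and a threshold of 0.05. The step was checked on simulated data. Its p-values measure the spread between libraries that may in part be technical. All 632 identifiers matched GENCODE M21 (GRCm38). For 16 the symbol differed, 1 of them turned into a date. Copies were searched with blastn 2.17.0, and promoters came from RefSeq (GRCm38.p6), 1 window per gene. Named members were the 10 lowest ratios, the 8 highest control means with a gene name, and up to 3 per functional group, and other members are given by their means. Python 3.11.15, numpy 2.4.6, pandas 2.3.3 and Biopython 1.88 were used. Alternatives changed the pseudocount (0.1), minimum level (1 and 5 FPKM), threshold (0.01), prior, scaling, the terms of the rule and the libraries used. Values of a few genes are not reported here.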

Additional observations from a re-analysis of the deposited data

How the results depend on the processing

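The number meeting the rule was 68 to 78 without 1 library, and 114 after every log2 ratio was lowered by 0.93, the median of all listed genes. This scale and the gap-centred one lower every ratio, so no member could change direction on them. The median log2 ratio of the members was -0.42 to -0.33 without 1 library, -1.29 on that scale and -0.51 on a gap-centred scale, set midway between percentile 99 of the lower and percentile 1 of the higher log2 ratios (a shift of 0.15, chosen after seeing the data, as were the common sum and the removal of copies). Between 51 and 61 members did not overlap without 1 library, where fewer values are compared. Of the listed genes limma called 46 lower, 20 of them members. These counts were 163 and 66 on the median-centred scale, 119 and 58 on the gap-centred scale, 8 and 3 at a threshold of 0.01, and 20 to 79 and 4 to 30 without 1 library. With a minimum of 5 FPKM 361 genes were tested, all 68 members among them. In that fit 26 genes were called lower, 14 of them members, and 179 higher (413 without the minimum). On the median-centred scale 71 genes were called higher. Without the 16 members that are non-coding or have a near-identical copy, 52 remained, with a median log2 ratio of -0.35. The share of higher among limma calls was 90% as deposited, 76.6% on the gap-centred and 30.3% on the median-centred scale. No paired analysis was made because the library titles share no replicate numbers. The litter of each library is not recorded, so a pairing of littermates may have been ignored. With 3 libraries per group and unknown depth, no interval for single values is given.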
